A study of Mus musculus with 2 samples.

Results

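The transcripts of 10 transporters that carry bile acids, phospholipid and organic anions across liver cell membranes were followed in single-cell RNA sequencing of mouse liver: Slc10a1, Slco1a1, Slco1a4, Slco1b2, Abcb11, Abcb4, Abcc2, Abcc3, Slc51a and Slc51b. These genes were chosen by name for their function, and all 10 were found by symbol among the 32285 genes of the count matrix. The labels describe 2 liver samples, 1 Cebp KO and 1 Cebp WT, both from mice given the 40% HFCFD, a fat, cholesterol and fructose diet used to bring on steatohepatitis, for 2 weeks; the series describes the knockout as limited to hepatocytes. In the study's methods such mice come from floxed Cebpa crossed with Cre under the Albumin promoter, which is active in hepatocytes, and no source used here gives the age of these animals. Each sample had its own capture lane, and barcodes of the joined matrix carry a 1 or a 2 at their end. The labels do not say which number is which genotype, so the libraries are called suffix 1 and suffix 2 and neither is given a genotype. With 1 library on each side, nothing was tested and p-values are absent.

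Hepatocytes are polarised cells. Their basolateral face takes bile acids and drugs from the blood, and their apical face, the bile canaliculus, secretes them into bile. Slc10a1 (the sodium-taurocholate carrier NTCP) is the main uptake carrier of conjugated bile acids, and the Slco1 genes encode sodium-independent organic anion carriers (OATPs). Abcb11, the bile salt export pump, secretes bile acids across the canalicular membrane, Abcb4 moves phosphatidylcholine to its outer leaflet, and Abcc2 exports conjugated organic anions such as bilirubin glucuronide. Abcc3 and the Slc51a/Slc51b pair (OSTα and OSTβ, which work only together) move bile acids and conjugates back to the blood. The bile acid receptor FXR, encoded by Nr1h4, binds with its partner RXR to inverted repeats of a nuclear receptor half-site spaced by a single base, and C/EBP factors, of which Cebpa encodes one, bind a short palindrome.

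Promoters were read from RefSeq (GRCm38.p6, 250 bases before to 50 bases after each start). Of the 10 genes, 9 were matched, Slc10a1 with 2 starts, and Abcc3 was not. Each of the 10 promoters was compared with the inverted repeat AGGTCANTGACCT and the palindrome ATTGCGCAAT, both of which read alike on either strand, and the closest stretch was kept with its number of mismatches. These forms, and the counting of mismatches, were settled after other patterns had been tried on the same promoters. The windows shown are those with the fewest mismatches to each form, with the matched stretch in capitals.
Abcb11, inverted repeat, chr2:69342659-69342687, minus strand: tggactttAGGCCATTGACCTataagcaa
Slco1b2, inverted repeat, chr6:141629422-141629450, plus strand: atttgtgtAGGACAGTGACCTgaagagat
Abcc2, palindrome, chr19:43782272-43782297, plus strand: tgcctttaATTGGGCAGTgaggatgg

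The promoters of Abcb11 and Slco1b2 came closest to the inverted repeat, each with 1 mismatch. In Abcb11 the stretch began 63 bases before the start, and in Slco1b2 88 bases before it. A stretch with at most 1 mismatch was held by 27 of 32851 promoters of the same length (0.0822%). Slc51b, Slc51a, Slco1a1 and both Slc10a1 promoters had 3 mismatches, which 11.4% of promoters matched or bettered, and the other 3 genes had 4 or 5. For the palindrome, Abcc2 was closest with 2 mismatches (4.83% of promoters at 2 or fewer), and the other promoters had 3 or 4. These are matches of letters, and no binding was measured.

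The matrix held 17313 barcodes and 60048646 unique molecular identifiers (UMIs, each marking 1 cDNA molecule) with suffix 1, and 15003 barcodes and 52355243 UMIs with suffix 2. The median mitochondrial share was 4.07% of UMIs with suffix 1 and 41.3% with suffix 2, and the filters kept 11617 and 6088 cells. In all, 81 barcodes occurred in both libraries, 34 of them among the kept cells. Cells were classed by a gate on marker genes. A deep hepatocyte-like cell had at least 5000 UMIs, at least 5 of the 10 hepatocyte markers and fewer than 2 markers of any other list. This gate kept few cells, 121 with suffix 1 (median 6116 UMIs) and 197 with suffix 2 (median 7146). Leiden clusters named from the same markers gave 509 deep hepatocyte-like cells (median 27473 UMIs) and 468 (median 14188), of which 19 and 129 were also in the gate; 490 and 339 of them carried 2 or more markers of another list. Of the 121 gated cells with suffix 1, 77 lay in an unnamed cluster and 21 in another unnamed cluster rich in Malat1. Values from the gate are therefore given with those from the clusters.

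Levels are UMIs of a gene per 1000000 UMIs of a class (CPM) with exact Poisson 95% intervals, which cover counting error only. The background is the level in B-like and T or NK-like cells together, which should lack these carriers and whose reads of them are taken as free RNA. All 10 hepatocyte markers had UMIs in the deep hepatocyte-like cells, at a summed level of 66678 CPM with suffix 1 and 111215 CPM with suffix 2 in the gate, and of 107987 and 117974 CPM in the clusters. The same list summed to between 26391 and 50571 CPM in B-like and T or NK-like cells of the gate. Fewer transcripts per cell and a larger share of other RNA cannot be told apart in CPM.

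In deep hepatocyte-like cells of the gate, 6 of the 10 genes lay above the free RNA level with suffix 1, against 21.2% of 11745 genes tested, and 7 with suffix 2, against 19.7% of 11850. In the clusters it was 7 with suffix 1 (background 21.5%) and 8 with suffix 2 (background 20.9%). Slc10a1, Slco1a1, Abcb11, Abcb4 and Abcc2 were among them in both libraries by either classification. Slco1b2 with suffix 1 passed in the gate only, Abcc3 in the clusters only, and Slco1a4 in all but the gated cells with suffix 1. Slc51a and Slc51b passed in none.

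**Figure D1:**
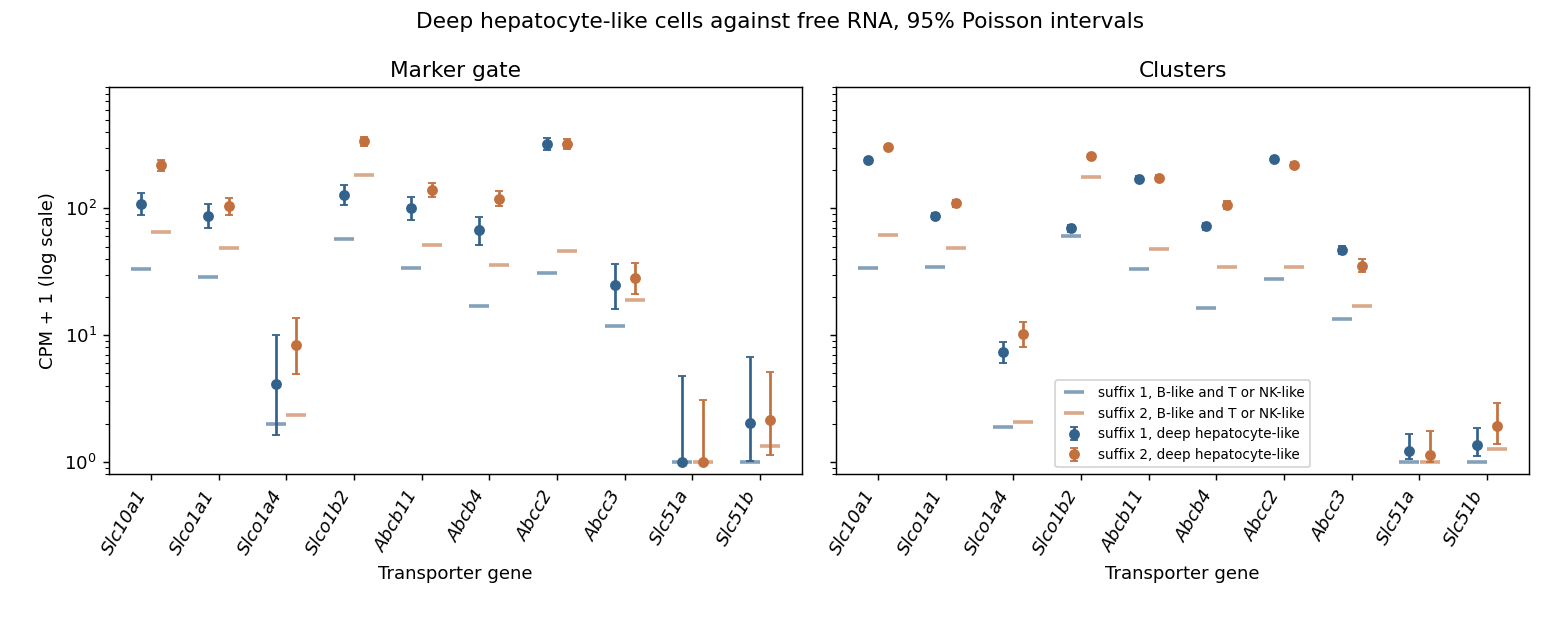
Level of each transporter gene in deep hepatocyte-like cells (points, CPM + 1 on a log scale, bars 95% Poisson intervals) and in B-like and T or NK-like cells of the same library (dashes), for suffix 1 in blue and suffix 2 in orange, with classes from the marker gate on the left and from clusters on the right. Slc51a and Slc51b sit at the bottom in both panels, and Slco1b2 with suffix 1 touches its dash in the clusters.

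Among the uptake carriers, Slc10a1 (chr12:80953183-80968705, minus strand) was at 107 CPM (87.5 to 130, 104 UMIs) in gated deep cells with suffix 1. With suffix 2 it was at 218 CPM (197 to 241, 382 UMIs), and the intervals did not overlap. The clusters gave 240 CPM (232 to 249) and 302 CPM (290 to 315), again without overlap but closer together. A UMI of Slc10a1 was found in 40.5% of the gated cells (31.7% to 49.8%) and 72.6% (65.8% to 78.7%), against 14.7% and 23.1% of B-like and T or NK-like cells. The median depth was 6116 and 7146 UMIs in the hepatocyte-like cells, and 4636 and 4142 UMIs in T or NK-like cells, which were most of the background. After thinning to 5000 UMIs the gated shares were 34.7% and 60.9%. In the clusters the libraries were not apart in this way: the shares were 95.7% and 92.9%, and after thinning 69.9% (65.8% to 73.9%) and 70.7% (66.4% to 74.8%).

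The 3 Slco1 genes are neighbours on chromosome 6: Slco1b2 (chr6:141629518-141686646, plus strand), Slco1a4 (chr6:141805440-141856199, minus strand) and Slco1a1 (chr6:141907282-141946962, minus strand). In the gate, Slco1b2, the mouse counterpart of the human liver OATPs, had 123 UMIs and 127 CPM (105 to 151) with suffix 1 and 590 UMIs and 337 CPM (310 to 365) with suffix 2. In the clusters it was at 68.7 CPM (64.3 to 73.2) and 256 CPM (244 to 267). Suffix 2 was higher by either classification. Its free RNA was at 56.5 CPM with suffix 1 and 183 CPM with suffix 2 in the gate. With suffix 1 the cluster level overlapped its free RNA (59.5 CPM, 52.5 to 67.1), so Slco1b2 of these hepatocyte-like cells was not separable from background there.

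Slco1a1 was at 86.5 CPM (69.0 to 107) and 103 CPM (88.2 to 119) in the gate, and at 85.5 and 109 CPM in the clusters. The classifications gave overlapping intervals for this gene in each library. Slco1a4, a related carrier, was sparse, with 3 UMIs (3.09 CPM) and 13 UMIs (7.42 CPM) in gated cells and 85 UMIs (6.32 CPM) and 69 UMIs (9.16 CPM) in the clusters. Slco1a1 overlaps Gm22036 on the same strand, and no source used here says how reads shared between overlapping or related genes were counted.

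Of the canalicular exporters, Abcb11 (chr2:69238282-69342616, minus strand) had a gated level of 98.9 CPM (80.1 to 121) with suffix 1 against 138 CPM (121 to 157) with suffix 2, and its intervals touched at 121. In the clusters the values were 170 CPM (164 to 178) and 173 CPM (164 to 183), which overlapped. Abcb4 (chr5:8893717-8959231, plus strand) was at 65.9 CPM (50.8 to 84.2) and 118 CPM (103 to 135) in the gate. The clusters gave 71.1 CPM (66.7 to 75.8) and 105 CPM (97.8 to 113), so Abcb4 was higher with suffix 2 in both.

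Abcc2 (chr19:43782192-43840740, plus strand) was at 321 CPM in the gated cells of both libraries, with intervals of 287 to 359 and 295 to 349. In the clusters suffix 1 gave 242 CPM (234 to 251), against 218 CPM (208 to 229) for suffix 2. Its free RNA was 29.9 and 44.7 CPM in the gate. The gated level of Abcc2 rested on few cells: the median was 0 UMIs per cell with suffix 1 and 1 with suffix 2, with up to 22 and 28 UMIs in a cell. In the clusters the medians were 6 and 2 UMIs.

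That level came largely from cells of a pair of unnamed clusters rich in Malat1, a long noncoding RNA that stays in the nucleus. Cluster 29 held 76 cells, all with suffix 1, and Malat1 made up 8.22% of its UMIs, while cluster 23 held 130 cells, all with suffix 2, and had 5.79%. Abcc2 was at 1564 CPM (1457 to 1676) in cluster 29 and 2256 CPM (2139 to 2377) in cluster 23. The next highest, the hepatocyte-like cluster 13, was at 250 CPM (239 to 262).

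Slco1b2 was also high there, at 372 CPM (321 to 429) in cluster 29 and 1254 CPM (1167 to 1346) in cluster 23, and Abcb4 was at 210 and 468 CPM. Both clusters had too few cell type markers to be named, and their median depths were 5888 and 3884 UMIs. Leaving their cells out, an alternative added after seeing the data, brought Abcc2 in the gated deep cells to 79.9 CPM (61.8 to 102) for suffix 1 and to 115 CPM (99.0 to 133) for suffix 2. Slco1b2 came to 59.3 and 224 CPM, and Abcb4 to 29.0 and 72.9 CPM. Slc10a1 moved little, to 110 and 220 CPM. The genes above free RNA then numbered 4 with suffix 1 (18.4% of 11452 genes tested) and 6 with suffix 2 (17.8% of 11665). Those lost were Slco1b2 and Abcb4 with suffix 1 and Slco1a4 with suffix 2.

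**Figure D2:**
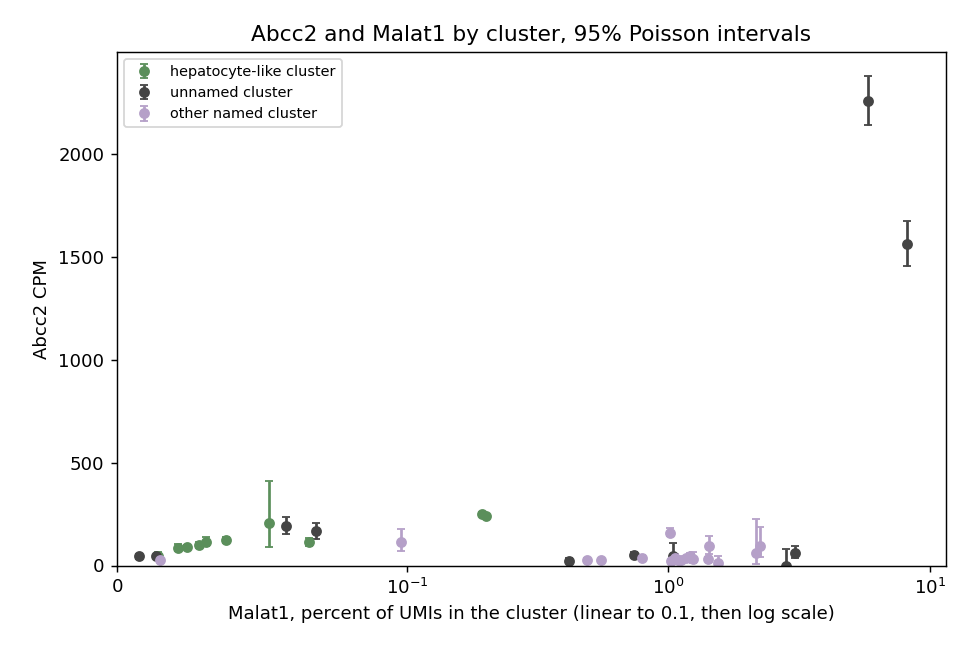
Abcc2 level in each of the 39 Leiden clusters (CPM, bars 95% Poisson intervals) against the share of the cluster's UMIs from Malat1 (percent, linear to 0.1, then log scale), with cells of both libraries pooled and clusters coloured by name. The 2 unnamed clusters at 5.79% and 8.22% Malat1 stand apart at 2256 and 1564 CPM.

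The basolateral exporters were low in hepatocyte-like cells. Abcc3 (chr11:94343295-94392997, minus strand) was at 23.7 CPM (15 to 35.5) and 27.4 CPM (20.2 to 36.3) in gated deep cells, where it overlapped its free RNA level. With the larger sums of the clusters it was at 46.0 CPM (42.4 to 49.7) and 34.2 CPM (30.2 to 38.7), above free RNA at 12.4 and 16.1 CPM, and higher with suffix 1.

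Slc51a (chr16:32474504-32487879, minus strand) had 0 UMIs in the gated deep cells of both libraries, a count that allows up to 3.09 CPM with suffix 1 and 1.71 CPM with suffix 2. Slc51b (chr9:65412714-65422955, minus strand) had 1 and 2 UMIs. In the larger sums of the clusters Slc51a had 3 and 1 UMIs (0.223 CPM, 0.0460 to 0.652, and 0.133 CPM, 0.00336 to 0.739), and Slc51b had 5 and 7 UMIs (0.372 CPM, 0.121 to 0.868, and 0.929 CPM, 0.373 to 1.91). Over all kept cells only 8 UMIs of Slc51a and 33 of Slc51b were counted. In cholangiocyte-like cells, a cell type known to use this pair, both genes had 0 UMIs, which allows up to 14.8 CPM with suffix 1 and 10.7 CPM with suffix 2 in the gate. Slc51a overlaps Pcyt1a and Slc51b overlaps Rasl12, in each case on the opposite strand.

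**Figure D3:**
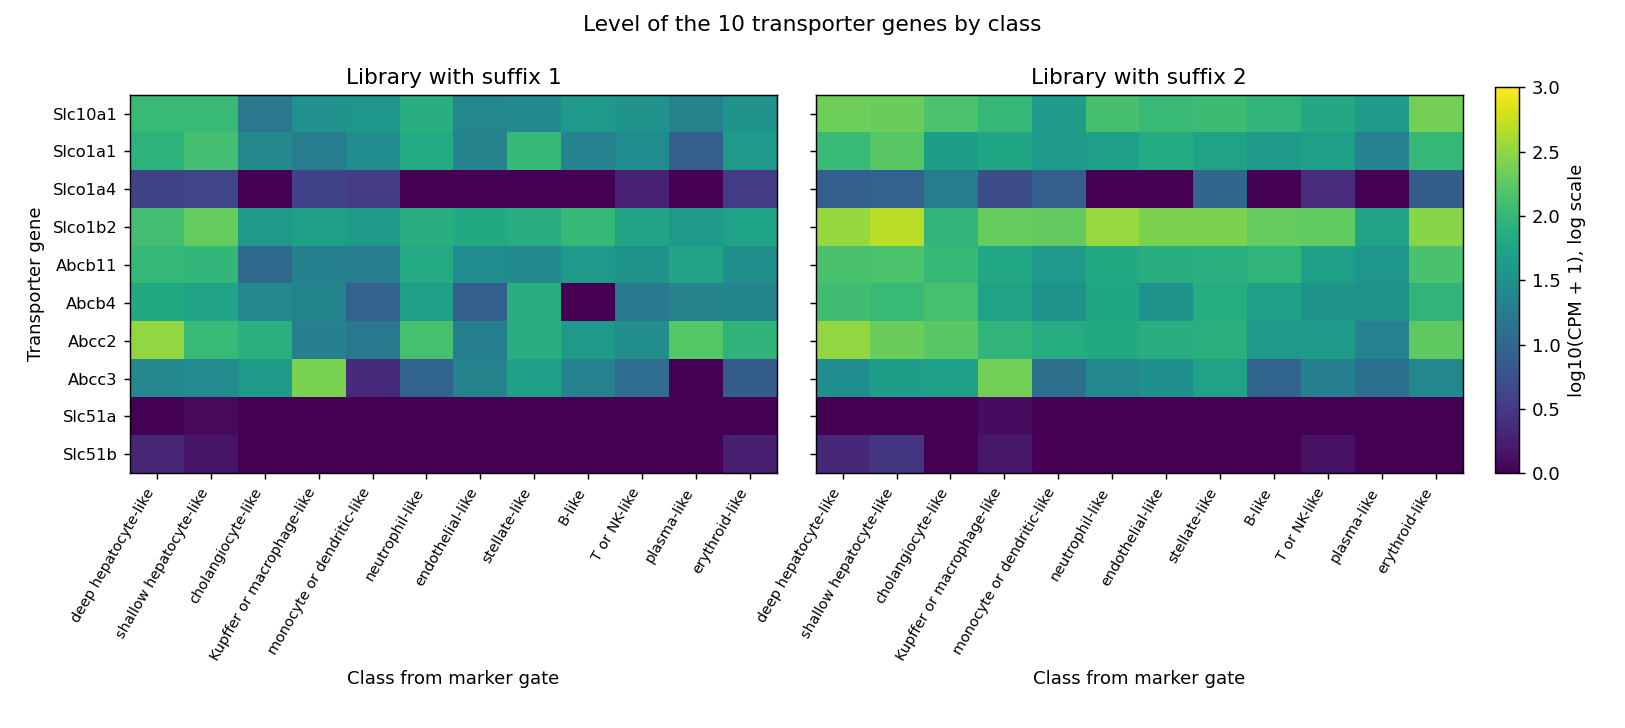
Level of the 10 transporter genes (vertical axis) in each class of the marker gate (horizontal axis), as log10(CPM + 1) in colour, for the library with suffix 1 on the left and suffix 2 on the right. Abcc3 is brightest in Kupffer or macrophage-like cells, Slc51a and Slc51b are dark throughout, and Slco1b2 is bright in nearly every class with suffix 2.

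The libraries were then compared gene by gene in deep hepatocyte-like cells, as a description of a pair of unassigned libraries. Their gated cells lay in different clusters: 77 of 121 with suffix 1 in cluster 2 and 21 in cluster 29, neither of which held cells of suffix 2, and 60, 58, 34 and 27 of 197 with suffix 2 in clusters 24, 13, 12 and 23. Of the 10 genes, 8 had at least 10 UMIs over both libraries in the gate. Of these, 3 were at least 2-fold higher with suffix 2, where 6.32% of 9590 genes were, and 0 at least 2-fold higher with suffix 1, where 10.6% were. The ratios of suffix 2 to suffix 1 were 2.66 for Slco1b2 (95% interval 2.18 to 3.25), 2.03 for Slc10a1 (1.63 to 2.55) and 2.40 for Slco1a4, which rested on 3 and 13 UMIs (0.660 to 13.1). Abcb4 was at 1.79, Abcb11 at 1.40, Slco1a1 at 1.19, Abcc3 at 1.16 and Abcc2 at 1.000. The median over the 8 genes was 1.59, against 0.842 over all genes tested. The 10 hepatocyte markers also differed in these gated cells, at a summed 66678 CPM with suffix 1 and 111215 CPM with suffix 2. How far hepatocyte RNA content goes into the ratios was not tested.

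In the clusters, the libraries' deep cells came from different clusters, with 491 of 509 of suffix 1 in cluster 11, which held 0 cells of suffix 2, and 361 and 95 of 468 of suffix 2 in clusters 13 and 24. There, 2 of 9 were at least 2-fold higher with suffix 2 (background 6.73% of 12601 genes) and 0 with suffix 1 (5.29%). They were Slco1b2 at 3.72 (3.44 to 4.03) and Slc51b at 2.50, on 5 and 7 UMIs (0.682 to 9.98). Slc10a1 came to 1.26 (1.19 to 1.33) and Abcc3 to 0.745 (0.641 to 0.862). The median was 1.27 over the 9 genes and 0.990 over all. Of the 10 genes, Slco1b2 alone was thus at least 2-fold apart by both classifications with an interval above 1, and the gate without the Malat1-rich clusters gave 3.78 (2.80 to 5.20) for it. The level with suffix 1 was not separable from free RNA in the clusters or without the Malat1-rich clusters. Abcb4, below 2-fold by both, was at 2.51 (1.61 to 4.08) without those clusters and at 2.42 (1.97 to 2.99) with deep cells from 3000 UMIs. That lower limit also brought Abcc3 to 2.49 (1.69 to 3.75) and Abcc2 to 1.89 (1.69 to 2.11). The free RNA of Slco1b2 differed in the same direction, by 3.23 in the gate and 2.98 in the clusters. In the shallow hepatocyte-like droplets its ratio was 2.55, with no subtraction. Subtraction of free RNA is given for the gate only, and in the clusters the suffix 1 level of Slco1b2 overlapped its free RNA. With the free RNA level subtracted, the gated ratio was 2.19 for Slco1b2, 0.939 for Slco1a1, 0.949 for Abcc2 and 0.720 for Abcc3. These values have no interval, and no direction is read from the last 3. The part of free RNA in the ratio of the libraries was not tested further.

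Cebpa, the targeted gene, had 2 UMIs in gated deep cells with suffix 1 (2.06 CPM, 0.249 to 7.44) and 89.0 CPM (75.6 to 104) with suffix 2. The clusters gave 19 UMIs (1.41 CPM, 0.851 to 2.21) and 109 CPM (102 to 117). These values were not used to assign a genotype.

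A wider list of 35 genes of bile acid and anion transport and its control was summarised by counts. Of these, 28 could be compared in the gate: 12 of 17 other transporters, 1 of 3 ductal genes, and all 4 scaffold genes and 11 regulators. At least 2-fold higher with suffix 2 were 4, all transporters (6.32% of all genes tested), and at least 2-fold higher with suffix 1 was 1 (10.6%). The 4 were Abcg5 at a ratio of 3.77 (1.93 to 8.21) and Abcg8 at 2.34 (1.47 to 3.86), which together form the sterol exporter of the canaliculus, and Slc10a2 (2.31) and Slc10a5 (2.03), both on 25 or fewer UMIs per library. Fgfr4, the FGF receptor that restrains bile acid synthesis, was at 0.415 (0.198 to 0.854).

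The clusters kept Abcg5 (2.2, 1.87 to 2.58) and Abcg8 (2.42, 2.10 to 2.80), added Abcc1 on 5 and 9 UMIs, and had 0 genes at least 2-fold higher with suffix 1 among 33 (backgrounds 6.73% and 5.29%). Slc10a2, the bile acid carrier of ileum and bile ducts, was then at 33.2 CPM with suffix 1 and 20.8 CPM with suffix 2 (ratio 0.628), and Fgfr4 at 0.944. Nr1h4, the gene of FXR, was at 246 CPM (216 to 279) and 149 CPM (131 to 168) in the gate and at 124 and 96.6 CPM in the clusters. Nr0b2, which encodes the repressor SHP, was at 50.5 and 59.9 CPM in the gate and at 29.7 and 45.0 CPM in the clusters.

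Position along the liver lobule was approximated by an index of 8 pericentral and 8 periportal genes, none of them a transporter studied here, and the deep cells of each library were cut by their rank into a periportal, a middle and a pericentral group of equal size. Slco1b2 was higher in the pericentral group. In the gate it was at 33.6 CPM (18.4 to 56.4) in the periportal, 109 CPM in the middle and 289 CPM (229 to 361) in the pericentral group with suffix 1, and at 250, 249 and 567 CPM with suffix 2. The ratio of the pericentral to the periportal group was 8.61 (4.84 to 16.5) and 2.26 (1.88 to 2.74). The clusters gave 5.37 (4.50 to 6.44) and 2.30 (2.06 to 2.58), but the gate without the Malat1-rich clusters gave 2.46 (1.20 to 5.19) and 1.05 (0.807 to 1.36).

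Slco1a1 leaned the same way, at 1.93 (1.09 to 3.45) with suffix 1 and 1.64 (1.15 to 2.34) with suffix 2 in the gate and 3.12 and 1.88 in the clusters, and at 1.56 and 0.963 without the Malat1-rich clusters. Slc10a1 was lower in the pericentral group of the gate, at 0.476 (0.273 to 0.795) and 0.572 (0.432 to 0.751). In the clusters its direction turned with suffix 1, at 1.39 (1.28 to 1.52), and was flat with suffix 2, at 0.990 (0.888 to 1.10).

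For the canalicular exporters no gradient was common to the classifications. Abcc2 had a ratio of 4.13 (3.06 to 5.64) and 2.10 (1.72 to 2.57) in the gate, 1.08 and 0.965 in the clusters, and 0.670 and 0.464 without the Malat1-rich clusters. Abcb4 went from 4.04 and 1.46 in the gate to 0.842 and 0.909 in the clusters and to 0.711 and 0.682 without the Malat1-rich clusters. Abcb11 was at 1.26 and 1.03 in the gate and 1.04 and 0.869 in the clusters, with intervals that held 1, and at 0.492 (0.225 to 0.990) and 0.602 (0.404 to 0.881) without the Malat1-rich clusters. Depth moved with the index. In the gate the median per cell was 7039 UMIs in the periportal and 6070 in the pericentral group with suffix 1, and 9824 and 6722 with suffix 2. In the clusters it was 32384 UMIs in the periportal and 20826 in the pericentral group with suffix 1, and 19988 and 9471 with suffix 2, and its part was not tested. Of the genes that made the index, pericentral Glul went from 24.0 to 408 CPM with suffix 1 and from 3.93 to 192 CPM with suffix 2 in the gate, and from 22.9 to 104 CPM and from 4.12 to 65.5 CPM in the clusters. Periportal Cyp2f2 went from 1217 to 593 CPM and from 1353 to 661 CPM in the gate, and from 2103 to 2059 CPM and from 1364 to 1016 CPM in the clusters.

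**Figure D4:**
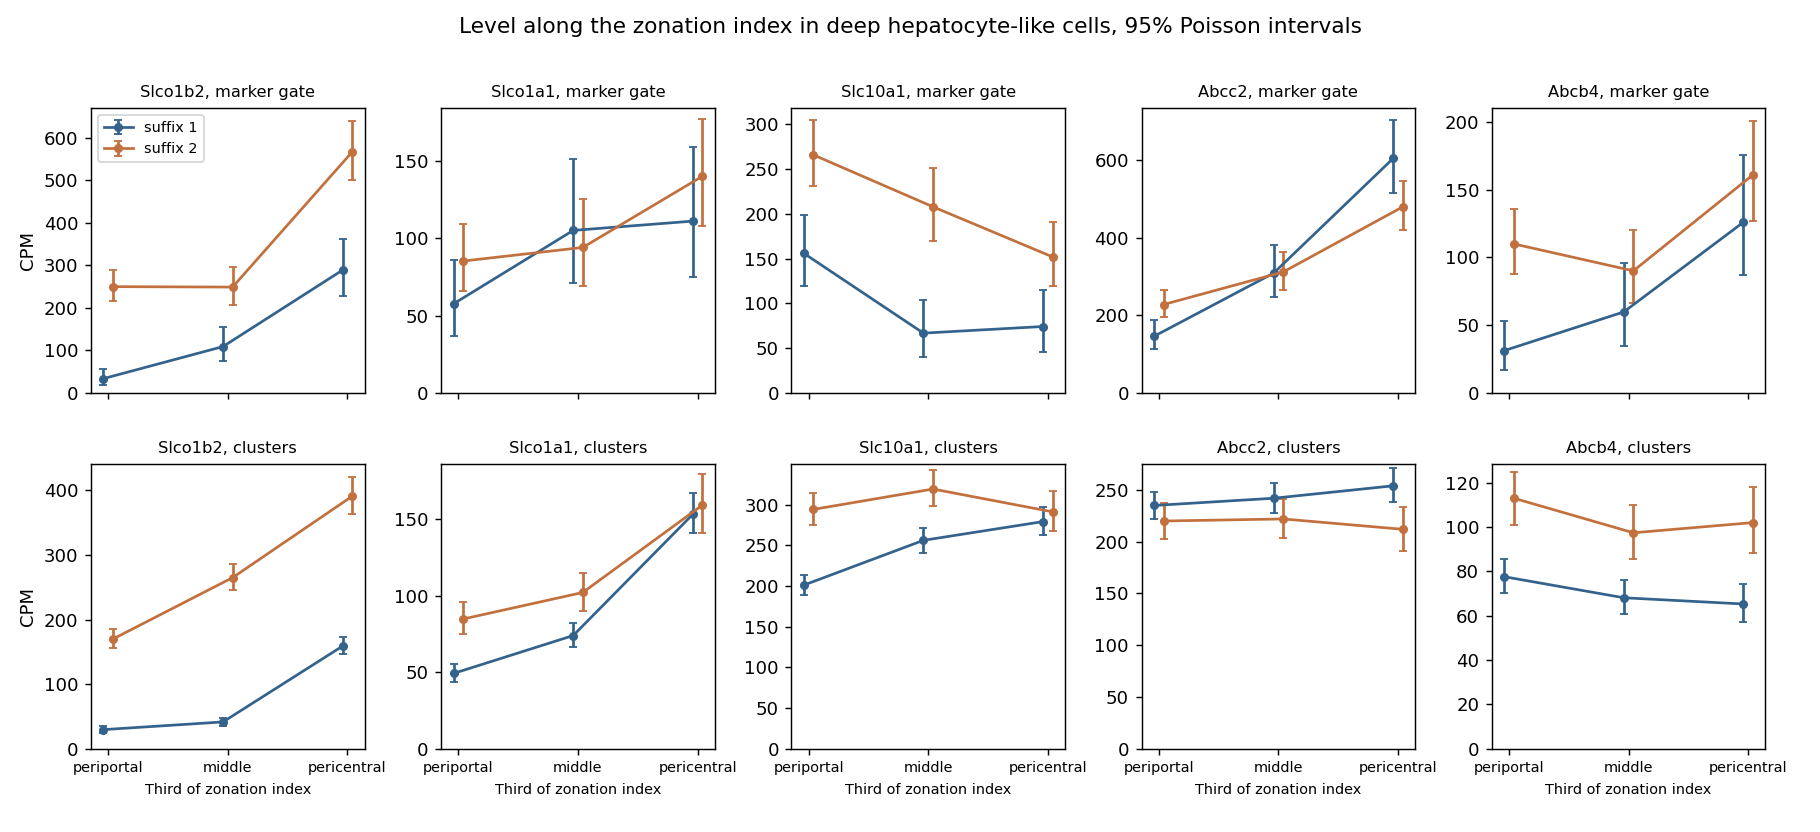
CPM (vertical axis, bars 95% Poisson intervals) of 5 transporter genes in the periportal, middle and pericentral group of the deep hepatocyte-like cells of each library (suffix 1 blue, suffix 2 orange), from the marker gate in the upper row and from clusters in the lower row. Slco1b2 is highest in the pericentral group in all 4 lines, while Abcc2 climbs in the gate and is level in the clusters.

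Cholangiocytes line the bile ducts and are known to take up bile acids from bile. The gate held 21 cholangiocyte-like cells with suffix 1 and 23 with suffix 2, in which 9 of 10 markers had UMIs. With suffix 1, 2 of the 10 transporter genes lay above free RNA (16.9% of 11622 genes did), and with suffix 2 it was 6 (17.9% of 11527). The 6 included Slc10a1 at 139 CPM (99.2 to 191) and Abcb11 at 100 CPM (66.5 to 145), genes of hepatocytes, and these cells also had Alb at 25412 CPM against 10663 CPM with suffix 1. Of the 23 cells, 5 lay in a hepatocyte-like cluster. A single cell held 20 of the 37 UMIs of Abcb4.

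In the clusters, with 65 and 29 cells, 3 genes passed with suffix 1 (background 27.4%) and 1 with suffix 2 (17.5%). The gene common to all was Abcc3, at 44.3 CPM (20.3 to 84.1, 9 UMIs) and 50.1 CPM (27.4 to 84.0, 14 UMIs) in the gate and at 39.4 CPM (29.1 to 52.3) and 58.4 CPM (31.9 to 97.9) in the clusters. Abcc2 was at 78.8 CPM (45.0 to 128) and 165 CPM (120 to 219) in the gate, and at 167 and 66.7 CPM in the clusters, where with suffix 2 it overlapped free RNA. In the same cells the 10 hepatocyte markers summed to 27655 and 67339 CPM in the gate and to 56653 and 48245 CPM in the clusters. Krt19, a keratin of bile duct cells, was at 330 and 207 CPM in the gate and at 96.1 and 263 CPM in the clusters. The part of hepatocyte RNA in these levels was not tested. Of the 3 ductal genes of the wider list, Cftr, the chloride channel of bile duct cells, was above free RNA in both libraries by either classification, at 78.8 and 104 CPM in the gate and 32.9 and 133 CPM in the clusters. The others did not pass in the gate, and Slc4a2 passed in the clusters with suffix 1. Slc10a2 passed throughout, at 49.3 and 71.5 CPM in the gate and 64.9 and 54.2 CPM in the clusters.

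The class with the most Abcc3 was that of Kupffer or macrophage-like cells. Its markers are those of Kupffer cells, the resident macrophages of the liver, and of macrophages in general. The 185 gated cells of suffix 1 had 400 UMIs and 245 CPM (222 to 270), and the 495 of suffix 2 had 839 UMIs and 230 CPM (215 to 246). The clusters gave 238 CPM (221 to 257) and 272 CPM (254 to 290). The next classes in the gate were stellate-like cells at 51.2 and 52.6 CPM, on 2 and 6 UMIs, and cholangiocyte-like cells, whose intervals overlapped one another.

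A UMI of Abcc3 was found in 75.7% of the Kupffer or macrophage-like cells with suffix 1 (68.8% to 81.7%) and in 64.6% with suffix 2 (60.3% to 68.9%). The share in B-like and T or NK-like cells was 5.63% and 7.69%. The Kupffer or macrophage-like cells had a median depth of 8475 UMIs with suffix 1 and 6394 with suffix 2. At an even 1000 UMIs a cell, with 0 and 9 shallower cells dropped, the shares were 20.5% and 19.8%, against 1.40% and 1.68% in T or NK-like cells. The deep hepatocyte-like cells of the clusters, at medians of 27473 and 14188 UMIs, had a UMI of Abcc3 in 63.1% and 37.8%. At 1000 UMIs a cell their shares were 3.54% and 3.42%.

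In the gated Kupffer or macrophage-like cells the 10 hepatocyte markers summed to 19878 CPM with suffix 1, against 26391 CPM in T or NK-like cells, and to 39659 CPM with suffix 2, against 36454 CPM. With suffix 2, 35 of the 495 cells lay in the hepatocyte-like cluster 13. The hepatocyte-like clusters 3 and 24 held 2 more cells each, and cluster 34 held 1. Abcc3 was the 1 transporter gene of the 10 above free RNA with suffix 1 (24.1% of genes tested were), while with suffix 2 it was 1 of 4 (25.9%), beside Slc10a1 at 97.6 CPM, Abcc2 at 89.9 CPM and Abcb4 at 52.6 CPM. In the clusters the sums were 20319 and 27119 CPM, and Abcc3 alone passed in both libraries (26.8% and 25.9%). Within cluster 7, the largest of the class and led by Cd5l, Clec4f and Vsig4, suffix 1 gave 247 CPM of Abcc3 (228 to 267) and suffix 2 gave 276 CPM (258 to 295). The other clusters of the class were lower with suffix 1, cluster 26 at 107 CPM (43.0 to 221) and cluster 37 at 111 CPM (57.2 to 193), and with suffix 2 they were at 121 CPM (52.4 to 239) and 186 CPM (85.1 to 353), on 12 or fewer UMIs each. The Kupffer or macrophage-like cells held 21.5% and 49.8% of all Abcc3 UMIs of kept cells in the gate, and 35.7% and 54.6% in the clusters.

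**Figure D5:**
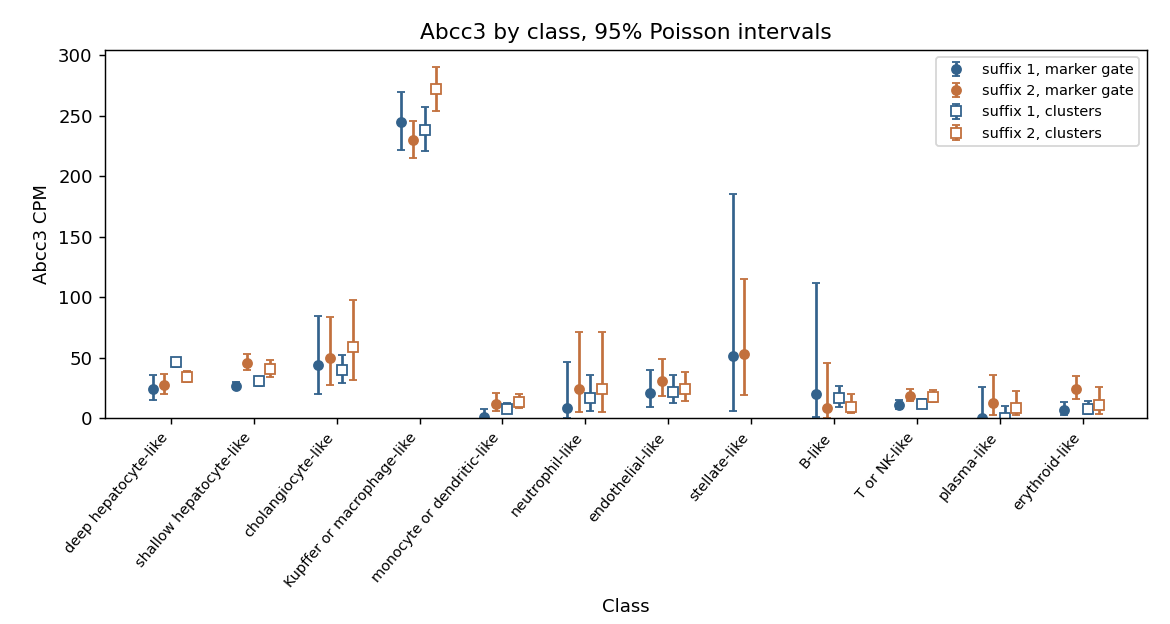
Abcc3 level (CPM, bars 95% Poisson intervals) by class, from the marker gate (filled circles) and from clusters (open squares), for suffix 1 in blue and suffix 2 in orange; no cluster was named stellate-like. All 4 values of Kupffer or macrophage-like cells lie between 230 and 272 CPM, above every other class.

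The genes whose pattern came closest to each transporter gene were found by Pearson's correlation of log2(CPM + 10) over 24 sums of a class in a library, which share depth and free RNA, and are given as a description. For Slc10a1 they were Apoa5 (0.941) and Apon (0.937), for Slco1b2 Hamp2 (0.956) and Scd1 (0.927), and for Abcb11 Hal (0.927) and Marc1 (0.925). Slco1a1 was closest to Hrg (0.898) and Glo1 (0.888), Abcb4 to Serping1 (0.918) and Itih4 (0.899), and Abcc2 to Adk (0.888) and Eva1a (0.876). Slco1a4 came closest to Mmd2 (0.742) and Prxl2b (0.729), and Abcc3 to Il18bp (0.858) and Slc45a3 (0.842). Over the 22 sums of the clusters the closest gene was another in every case, among them Nr1h3 (0.946) and Lrp1 (0.944) for Abcc3. Slc51a and Slc51b had too few UMIs for this.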

How the data were processed

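The authors deposited whole-number UMI counts per gene and barcode, and the file headers name Cell Ranger 7.1.0; the submitters' processing notes also name bcl2fastq 2.20.0, STAR 2.7.2a and mm10. No source used here gives the annotation, the cell calling or whether introns or strand were counted. The filters asked for 500 UMIs, 200 genes and a share of no more than 25% from the 13 mitochondrial genes. Classes came from 11 marker lists. A non-hepatocyte class needed 3 distinct markers of only 1 list, and cells with 3 of several lists were left out. No doublet caller was run; cells of other classes were set aside when their hepatocyte share passed the median of deep hepatocyte-like cells (808 and 114 cells). As an alternative, cells were scaled to 10000, and 2000 variable genes without the members, 30 components, 15 neighbours and Leiden clustering at resolution 1 (igraph 0.11.9) gave 39 clusters, of which 28 were named. The naming limits for clusters (score of at least 2 and 20 cells for classes other than hepatocytes) and the setting without the unnamed clusters of over 5% Malat1 were chosen after seeing the data.

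Intervals are exact Poisson for levels, exact binomial (Clopper-Pearson) for shares and conditional binomial for ratios, at 95%, and a count of 0 allows 3 UMIs. They cover counting error only, and no test was run because each genotype had 1 sample. The members and lists were chosen with earlier results of these data known. Named genes were the 10 members, Cebpa, genes of the 35-gene list at least 2-fold apart, and the 2 genes closest to each member; others of the list, the index and the markers were named after their values were seen. Of 32285 gene IDs, 32158 (99.6%) were found in GENCODE M21 on GRCm38, the same assembly as mm10. Python 3.11.15, numpy 2.4.6, scipy 1.17.1, pandas 2.3.3 and matplotlib 3.10.9 were used, and 0 columns of other samples were left out. The 2-fold calls and Poisson intervals were tested on simulated Poisson counts of genes with many UMIs. That simulation covers neither genes with few UMIs nor spread beyond counting error.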

Additional observations from a re-analysis of the deposited data

Results flagged for a closer look

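The droplets above the mitochondrial limit, which entered no comparison under the main filters, were looked at because they carried more of the transporter genes than free RNA did. With suffix 1, 5675 such droplets held the 10 genes at a summed 824 CPM (811 to 837), against 208 CPM in B-like and T or NK-like cells. With suffix 2, 8886 droplets held them at 1397 CPM (1382 to 1411), against 445 CPM. They contained 36.5% of all UMIs of the 10 genes with suffix 1 and 60.5% with suffix 2, where they held 30.8% and 50.5% of the UMIs of all genes, and 17.6% and 32.7% of those not from mitochondrial genes. For Slco1b2 with suffix 2 it was 16230 of 23252 UMIs (69.8%), at 614 CPM (605 to 624), and for Abcc3 with suffix 1 it was 27.2%.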

How the results depend on the processing

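Results were recomputed under planned changes of the filters, the depth limit, the marker gate, the classes, the level and the free RNA, and under alternatives added after seeing the data (mean UMIs per cell, other cluster resolutions, and zonation by clusters or without the Malat1-rich clusters). Of 81 recomputed counts, 68 stayed within 1.5 times, and of 1260 recomputed CPM levels, 1001 moved by less than their counting interval. Of 126 recomputed ratios of the libraries, 99 were marked as the same. Fewer held among shares of cells, with 35 of 80 marked as the same, and among zonation ratios, with 28 of 55. The count of genes above free RNA in cholangiocyte-like cells with suffix 2, 6 as reported, was 1 with a mitochondrial limit of 10%, without a filter on cells, with deep cells from 3000 UMIs, with Leiden clusters and at resolution 0.5, and 3 with a limit of 50% and at resolution 2. With suffix 1 it was 2, and became 5 with deep cells from 10000 UMIs, 5 with cells of high hepatocyte share kept, and 4 as a mean over cells. In deep hepatocyte-like cells, the 7 genes with suffix 2 became 4 at 10000 UMIs, which left 53 cells, and the 3 genes at least 2-fold apart became 5 at 3000 UMIs and 1 at 10000 UMIs. The share of all genes that passed was computed only for the main gate, the clusters at resolution 1 and the gate without the Malat1-rich clusters. Counts at the other settings therefore have no background to be set against, and nothing is read from their changes. The causes were not tested. The pericentral to periportal ratio crossed 1 with Leiden clusters for Slc10a1 (1.39), Abcb4 (0.842) and Abcc3 (0.880) with suffix 1 and for Abcc2 (0.965), Abcb4 (0.909) and Abcb11 (0.869) with suffix 2. Without the Malat1-rich clusters it crossed 1 for Abcb4 (0.711), Abcc2 (0.670) and Abcb11 (0.492) with suffix 1 and for Abcc2 (0.464), Abcb11 (0.602), Abcb4 (0.682), Slco1a1 (0.963) and Abcc3 (0.979) with suffix 2. At 10000 UMIs it did so for Abcc2 (0.743, 0.306 to 1.70) and Abcb11 (0.774) with suffix 1 and for Slco1a1 (0.598), Abcb11 (0.590) and Abcb4 (0.638) with suffix 2, and with 2 groups in place of 3 for Abcb11 (0.884) with suffix 2. No library could be left out, since each side had 1. No paired analysis was possible because each genotype had 1 sample and the suffixes are not tied to a sample. Depth limits the cholangiocyte-like values and the gated values of Slc51a and Slc51b.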
